A study of Mus musculus with 6 samples.

Results

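The genes described here are 42 mouse genes of glycolysis, lactate handling and the pentose phosphate pathway, with Hif1a, a regulator of glycolytic genes. They were chosen by symbol, with earlier results of these data known, and all 42 had a row among the 35932 genes of the deposited count table. RNA sequencing was done on myeloid leukemic blasts from mouse bone marrow, all of the genotype MLL-AF9+, which marks leukemia cells that carry a fusion of the Mll (Kmt2a) and Af9 (Mllt3) genes. The 3 libraries of chemotherapy-sensitive blasts carried the treatment label of vehicle. The 3 libraries of chemotherapy-resistant blasts carried that of Cytarabin + Doxorubicin, a nucleoside analog with an anthracycline. Resistance and drug exposure thus could not be told apart. The labels give no strain, age, dose, time of harvest or origin of the replicates. The p-values thus weigh the difference of the groups only against the spread of libraries within them, and that spread may be technical. In RNA from bulk cells, fewer cells of a type and less RNA per cell cannot be told apart.

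Glycolysis splits glucose into pyruvate with a gain of ATP, and lactate dehydrogenase turns pyruvate into lactate, which leaves the cell through monocarboxylate carriers. The pentose phosphate pathway branches off at glucose 6-phosphate. Its oxidative branch makes NADPH and pentose phosphate, and its non-oxidative branch exchanges carbon between pentose phosphates and glycolytic intermediates. Proliferating blood cells use both routes, for energy and for the ribose of nucleotides.

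Library totals lay between 22206341 and 31856009 counts. Markers of myeloid blasts (Kit, Cd34, Mpo, Elane, Hoxa9, Meis1, Myb and Cd33) were present in every library, with a summed CPM (read counts scaled to a common library total) of 4248 to 4742 in sensitive and 3755 to 4272 in resistant libraries. Cd34, Hoxa9 and Cd33 rose and Kit and Elane fell. Markers of more mature or other marrow cells differed between the groups. The 4 globin genes summed to 42.2 to 73.2 CPM in sensitive libraries and 0.126 to 1.32 CPM in resistant ones, 7 erythroid genes to 5.13 to 9.73 against 1.23 to 1.87 CPM, the 10 neutrophil genes to 204 to 243 against 32.9 to 50.6 CPM, and the 8 monocyte and macrophage genes to 944 to 1028 against 443 to 510 CPM. Of the tested genes in these lists, 4 of 4, 3 of 4, 8 of 9 and 5 of 8 fell. The part of these shifts in the results below was not tested. B cell genes summed to 38.1 to 41.1 CPM in sensitive and 37.8 to 40.6 CPM in resistant libraries, nearly all of it Cd79b, with Ms4a1 and Pax5 at 0 in the resistant ones. T cell genes summed to 3.13 to 4.51 CPM in sensitive libraries against 1.77 to 2.73 CPM, and megakaryocyte and platelet genes to 9.49 to 10.6 against 5.89 to 7.03 CPM; in both lists the groups lay apart, and Cd8a and Itga2b fell. Genes of stroma and endothelium summed to at most 0.910 CPM.

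Of the 42 genes, 40 had enough counts to be tested. By edgeR's quasi-likelihood test with Benjamini-Hochberg adjustment over 13414 genes at a threshold of 0.05, 14 rose in resistant blasts (35% of the tested members), against 18.5% of all tested genes. A further 13 fell (32.5%), against 20.8% of all tested genes, and 13 did not pass. In either direction 67.5% of the members passed, against 39.2% of all genes. Among genes with a mean of at least 50 CPM, 19 of 28 members passed (67.9%), against 44.9% of the 4681 genes at that level. Of those 28, 10 rose, where 26.1% of all genes at that level did, and 9 fell, where 18.8% did. The groups did not overlap, every resistant library lying on the same side of every sensitive one, for 27 members (67.5%), against 52.4% of all tested genes. The resistant libraries were the higher ones for 15 of the 40 tested members, against 25.2% of all tested genes. They were the lower ones for 12 of the 40, against 27.2%. Without sensitive replicate 2, 1641 of all tested genes rose in place of 2475, and 12 members rose and 9 fell.

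The changes had no common direction and most were small. The median log2 fold change of the tested members, resistant over sensitive, was 0.01, beside -0.01 for all tested genes. Among members that passed, the median size was 0.43 on the log2 scale, beside 0.42 for all genes that passed. Only Tktl1, Ldhb and Pdk2 passed with a change of over 2-fold, and over all tested genes 7.79% did so. Genes that rose included 4 of 6 tested genes from triose phosphate to pyruvate and 3 of 4 of lactate formation and transport. Genes that fell included 2 of 3 at the hexokinase step and 2 of 3 of the oxidative pentose phosphate branch. They also included 2 of 5 of the non-oxidative branch and 2 of 4 that set fructose 2,6-bisphosphate. Several roles held calls in both directions. Eno3 fell between triose phosphate and pyruvate, Tktl1 rose in the non-oxidative branch, and Pfkfb2 rose among the fructose 2,6-bisphosphate genes. Of 7 genes from glucose 6-phosphate to triose phosphate, 3 rose and 2 fell, and of 3 pyruvate dehydrogenase kinase genes 1 rose and 1 fell. The role groups are small, and no test of a role was made.

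**Figure D1:**
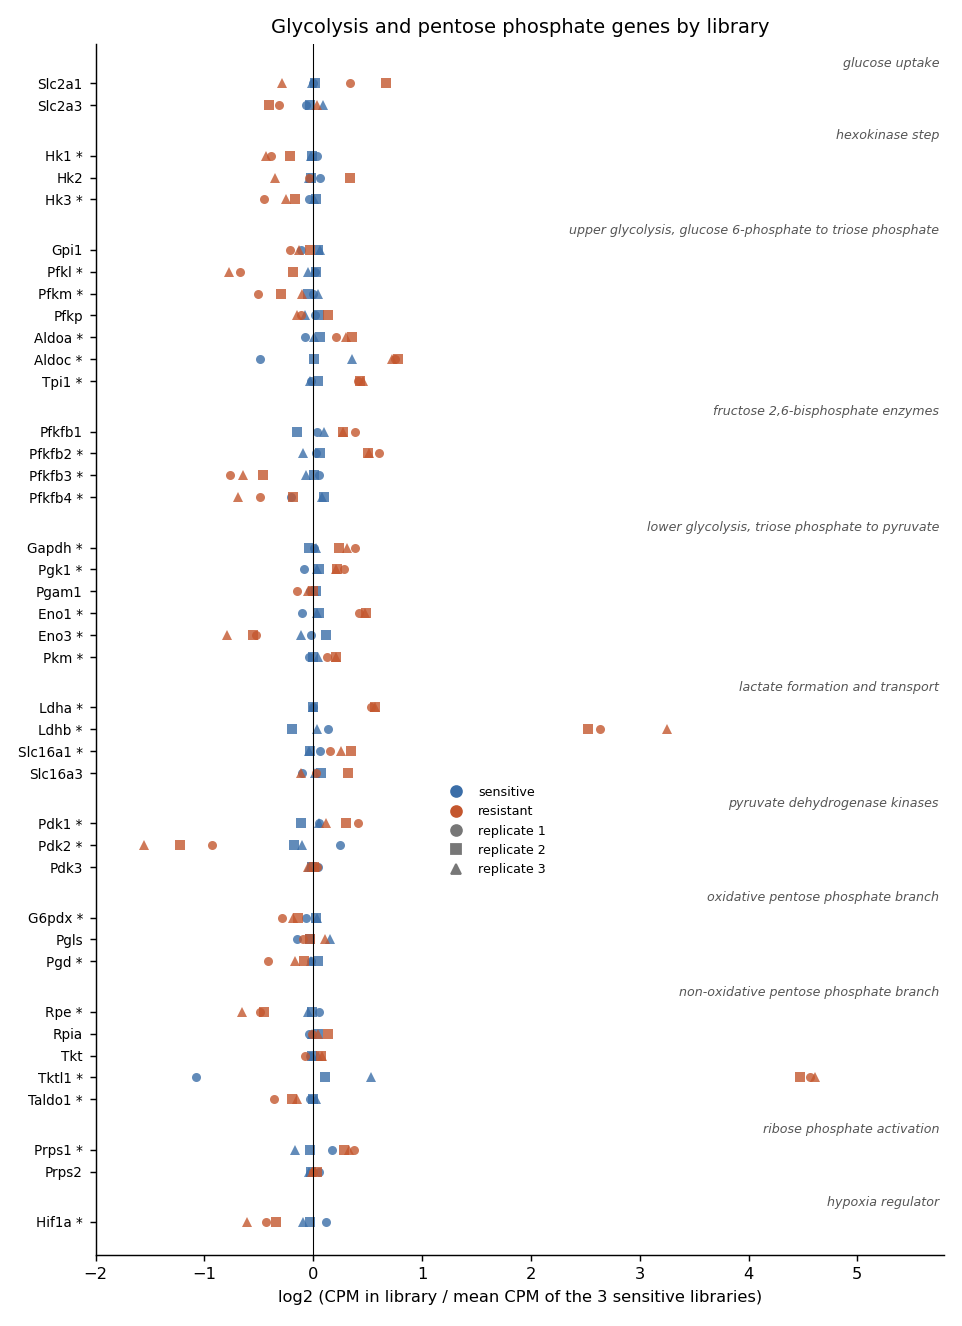
Level of each tested member in each library, as log2 of its CPM over the mean CPM of the 3 sensitive libraries, grouped by role; colours give the group, symbols the replicate number, and an asterisk marks genes past the test. Tktl1 and Ldhb stand far to the right, Pdk2 to the left, and most other members lie within 1 log2 unit of the line.

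Sequence upstream of the start sites was set beside these directions, because genes of this pathway are textbook targets of factors that bind short motifs there. The motif ACGTG or GCGTG, on either strand, is the core of the hypoxia response element bound by HIF1, and CACGTG is the E-box bound by factors such as MYC; every CACGTG also holds ACGTG. RefSeq windows of 300 bases (250 before to 50 after the start, GRCm38.p6) were found for 41 of the 42 members, 62 windows in all, and Slc2a3 had none. Stretches of 30 bases with a CACGTG, in capitals, are shown for members that rose (Ldha, Slc16a1, Pfkfb2) and members that fell (Pfkfb3, Hif1a, Pdk2, Pfkm), since the same letters stood before genes that moved in opposite directions. Each is written 5′ to 3′ on the strand of its gene.
Ldha, distal: ggtgtcgcagcaCACGTGgagccactcttg
Ldha, proximal: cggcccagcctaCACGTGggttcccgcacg
Slc16a1: gcggcgccgggtCACGTGgcgggaaggggg
Pfkfb2: ggccaagcgcccCACGTGactcgccccaac
Pfkfb3: cacccttctctcCACGTGaaagggggctgg
Hif1a: cacacagacaagCACGTGagcggggcagct
Pdk2: ctcgaggagagcCACGTGtcgaagcgcaag
Pfkm: aattaagtatgcCACGTGaagtaagtaatt
On the plus strand lie the Ldha stretches at chr7:46845647-46845676 and chr7:46845744-46845773, that of Slc16a1 at chr3:104638452-104638481, that of Hif1a at chr12:73907720-73907749 and that of Pfkm at chr15:98092441-98092470. On the minus strand lie those of Pfkfb2 at chr1:130715826-130715855, Pfkfb3 at chr2:11502126-11502155 and Pdk2 at chr11:95041480-95041509. The 2 sites of Ldha lie 145 and 48 bases before the start, in a window with 30 CG dinucleotides. The windows of the other stretches held 42 (Slc16a1), 25 (Hif1a and Pdk2), 20 (Pfkfb3), 14 (Pfkfb2) and 4 (Pfkm). The median was 20 for windows of tested genes and 17 for those of members. Ldha, Pfkfb2, Pfkfb3, Pdk2 and Pfkm also had windows at other starts, without CACGTG. Which start was in use was not tested.

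The 2 genes with the largest changes, Tktl1 and Ldhb, had no CACGTG in their windows and a single GCGTG each, shown in capitals.
Tktl1: ctccataagcaaGCGTGtgcgcatgtgcaa
Ldhb: gcgggggagagcGCGTGcacactccagcct
They lie at chrX:74177141-74177170 on the plus strand and at chr6:142508066-142508095 on the minus strand. CACGTG occurred in 7 of the 62 member windows (11.3%), in 9.89% of the windows of tested genes and in 7.15% of all windows. By direction it was in 3 of 24 windows of genes that rose (12.5%), 4 of 20 of genes that fell (20%) and 0 of 15 of genes that did not pass. ACGTG or GCGTG occurred in 46 member windows (74.2%), against 60.8% for tested genes and 43.8% for all. It was in 83.3% of the windows of genes that rose, 75.0% of those of genes that fell and 73.3% of those of genes that did not pass. Windows of 1 gene can overlap, and a match describes letters, not a bound site.

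Glucose enters blasts through facilitative transporters. Slc2a1, which encodes the widely expressed transporter GLUT1, stood at 26.0, 26.2 and 25.7 CPM in sensitive replicates 1 to 3 and at 32.9, 41.4 and 21.3 CPM in resistant replicates 1 to 3. The third resistant library lay below every sensitive one and the other two above, and the difference did not pass (log2 fold change 0.29 ± 0.18 SE, adjusted p = 0.228, edgeR). Without resistant replicate 3 it passed, at 0.52 and an edgeR adjusted p of 0.00519, and without resistant replicate 2 the change was 0.07 (adjusted p = 0.743). Slc2a3, which encodes the high-affinity transporter GLUT3, ranged from 13.7 to 15.2 CPM in sensitive and from 10.8 to 14.6 CPM in resistant libraries and did not pass (-0.22 ± 0.12, adjusted p = 0.185). It passed without resistant replicate 3, at -0.35 and an edgeR adjusted p of 0.0265, and was at -0.13 (adjusted p = 0.442) without resistant replicate 2.

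At the hexokinase step, which traps glucose as glucose 6-phosphate, 2 of 3 genes fell. Hk3, a hexokinase of myeloid cells, was at 595, 619.8 and 614 CPM in sensitive and at 446, 543 and 512 CPM in resistant libraries. All 3 resistant libraries lay below the sensitive ones, by 1.22-fold on average (log2 fold change -0.29 ± 0.07, edgeR adjusted p = 0.00805). Hk1, the broadly expressed form, stood at 184, 178 and 177 CPM and then at 137, 155 and 133 CPM. It fell 1.27-fold (-0.34 ± 0.06, edgeR adjusted p = 0.00189), with no overlap. Hk2, the form most often tied to high glycolysis, was at 91.7, 86.6 and 85.7 CPM in sensitive and at 85.7, 111 and 68.9 CPM in resistant libraries. The resistant libraries of Hk2 thus held both the highest and the lowest value of the 6, with a coefficient of variation of 24.1% against 3.65% in sensitive ones, and the means did not differ beyond that spread (log2 fold change 0.01 ± 0.13, edgeR adjusted p = 0.971). The summed level of the hexokinase genes was 877 ± 6.98 CPM (SD, n = 3) in sensitive blasts and 731 ± 71.7 CPM in the resistant ones.

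Of the 7 genes between glucose 6-phosphate and triose phosphate, 3 rose, 2 fell and 2 did not pass. Tpi1, which interconverts the triose phosphates, stood at 381, 401 and 380.3 CPM in sensitive and 515, 523 and 531 CPM in resistant libraries. It rose 1.35-fold (log2 fold change 0.43 ± 0.05, edgeR adjusted p = 7.11e-05), with narrow groups far apart. Aldoa, the main aldolase, was at 855, 938 and 902 CPM in sensitive and at 1037, 1151 and 1107 CPM in resistant libraries. Its rise of 1.22-fold (0.29 ± 0.06, edgeR adjusted p = 0.00224) left the groups apart. Aldoc, a minor aldolase best known from brain, varied in sensitive libraries (6.37, 8.98 and 11.5 CPM) and hardly in resistant ones (15.03, 15.3 and 14.8 CPM). Every resistant value exceeded every sensitive one, and the gene rose 1.68-fold (0.75 ± 0.17, edgeR adjusted p = 0.00645).

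The genes that fell in this stretch both encode phosphofructokinase, the enzyme of the committed step. Pfkl, the liver-type subunit, stood at 127, 128 and 122 CPM in sensitive and at 79.1, 110.4 and 73.4 CPM in resistant libraries. It fell 1.44-fold (log2 fold change -0.52 ± 0.12, edgeR adjusted p = 0.00696), and resistant replicate 2 lay nearest to the sensitive ones. Pfkm, the muscle-type subunit, was at 22.3, 21.6 and 23.1 CPM in sensitive and at 15.7, 18.2 and 20.8 CPM in resistant libraries. Its fall of 1.22-fold passed narrowly (-0.29 ± 0.11, edgeR adjusted p = 0.048). The adjusted p rose to 0.0525 with RLE factors and 0.0556 with upper quartile factors, and to between 0.0898 and 0.148 when any library other than resistant replicate 3 was left out, with -0.19 as the smallest change, without resistant replicate 1. Pfkp, the platelet-type subunit, ranged over 108 to 118 CPM in sensitive and 103 to 125 CPM in resistant libraries (-0.04 ± 0.08, adjusted p = 0.719, edgeR). Its transcript shares 748 bases with that of Pitrm1 on the other strand. Gpi1, glucose 6-phosphate isomerase, stood at 1356, 1505 and 1526 CPM and then at 1258, 1437 and 1338 CPM. Its groups overlapped, and it did not pass (-0.12 ± 0.06, edgeR adjusted p = 0.149).

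Fructose 2,6-bisphosphate, made and removed by the bifunctional Pfkfb enzymes, activates phosphofructokinase. Pfkfb3, a form with high kinase activity, stood at 103, 99.7 and 94.2 CPM in sensitive and at 58.3, 71.9 and 63.3 CPM in resistant libraries. It fell 1.53-fold (log2 fold change -0.62 ± 0.08, edgeR adjusted p = 0.000167), with a wide gap between the groups. Pfkfb2, the form first known from heart, went the other way. It was at 19.99, 20.5 and 18.4 CPM in sensitive and at 29.9, 27.9 and 28.0 CPM in resistant libraries, a rise of 1.46-fold (0.54 ± 0.08, edgeR adjusted p = 0.000482) without overlap. Pfkfb4 was at 14.8, 18.3 and 18.0 CPM and then at 12.2, 14.97 and 10.6 CPM. It fell 1.36-fold (-0.44 ± 0.13, edgeR adjusted p = 0.0246), although resistant replicate 2 lay above sensitive replicate 1. The call was lost without sensitive replicate 2 or 3 or resistant replicate 1 or 3, where the adjusted p lay between 0.0729 and 0.0959 and the change between -0.42 and -0.33. Pfkfb1, known from liver, ranged over 5.804 to 6.90 CPM in sensitive and 7.76 to 8.38 CPM in resistant libraries. Its groups lay apart, but the difference did not pass (0.31 ± 0.12, adjusted p = 0.0605, edgeR).

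From triose phosphate to pyruvate, the ATP-yielding stretch, 4 of 6 tested genes rose and 1 fell. The summed level of this stretch was 4860 ± 138 CPM in sensitive blasts and 5637 ± 73.4 CPM in the resistant ones (SD, n = 3). Eno1, the main enolase, stood at 829, 925 and 912 CPM in sensitive and at 1190.0, 1241 and 1233 CPM in resistant libraries. It rose 1.37-fold (log2 fold change 0.46 ± 0.05, edgeR adjusted p = 9.8e-05). Pgk1, phosphoglycerate kinase, was at 449.6, 494 and 489 CPM and then at 583, 554 and 552 CPM. It rose 1.18-fold (0.24 ± 0.05, edgeR adjusted p = 0.00606). Pkm, pyruvate kinase of most tissues, was at 1632, 1678 and 1735 CPM in sensitive and at 1842, 1943 and 1939 CPM in resistant libraries. Its rise was the smallest of the 4, at 1.13-fold (0.18 ± 0.05, edgeR adjusted p = 0.00987). In all of these the lowest resistant library lay above the highest sensitive one. The counts are per gene, so the M1 and M2 forms of Pkm were not separated.

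Gapdh, glyceraldehyde 3-phosphate dehydrogenase, was at 749.6, 723 and 759 CPM in sensitive and at 973, 879 and 921 CPM in resistant libraries. It rose 1.24-fold (log2 fold change 0.31 ± 0.05, edgeR adjusted p = 0.000959), with no overlap. Gapdh has many processed pseudogenes, and 46 other rows of the table had a transcript at least 95% identical to that of Gapdh, on the same strand, over at least 300 bases. Of these, 42 held counts. They took 37.1% to 47.1% of the sum of Gapdh and its near-copies, so how reads were shared among them bears on the value. With those rows added to Gapdh, the level was 1333 ± 85.7 CPM in sensitive blasts and 1531 ± 31.5 CPM in the resistant ones (SD, n = 3), and the log2 fold change was 0.20 ± 0.05 (edgeR adjusted p = 0.0144). Most counts of these rows were in 2 of them, Gm12033 and Gm13394. Gm13394 was at 43.2, 249 and 266 CPM in sensitive and at 54.1, 241 and 273 CPM in resistant libraries, low in replicate 1 of both groups. Gm12033 was highest in those same libraries, at 423 CPM in the sensitive and 500.3 CPM in the resistant one, and lay between 333 and 370 CPM in the other 4.

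**Figure D2:**
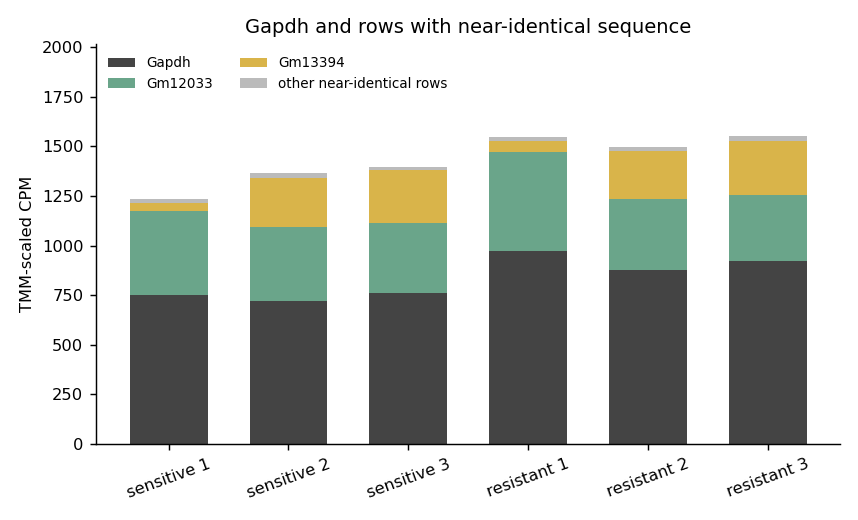
Summed CPM of Gapdh and the rows with near-identical sequence in each library, as stacked bars from 0. The whole bar is higher in the 3 resistant libraries (1495 to 1551 CPM) than in the 3 sensitive ones (1235 to 1397 CPM), and the Gm13394 segment is thin in both replicate 1 libraries.

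The other near-copies mattered less. Those of Pgk1 held 10.1% to 18.1% of the sum, and its change was 0.27 with them. The 2 rows concerned, Pgk1-rs7 and Gm5537, had equal counts in all 6 libraries. The change of Eno1 was 0.47 with its near-copy Gm4735, and Eno1b had 0 counts. Pgam1-ps2 held 3.08% to 5.43% of the sum with Pgam1, and the near-copies of Ldha, Ldha-ps2 among them, at most 0.0240%. No member's call changed when such rows were added.

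Eno3, the muscle enolase, moved against Eno1. It was at 6.26, 6.86 and 5.87 CPM in sensitive and at 4.41, 4.32 and 3.67 CPM in resistant libraries, a fall of 1.53-fold (log2 fold change -0.61 ± 0.14, edgeR adjusted p = 0.00648) with the groups apart. Pgam1, phosphoglycerate mutase, did not pass, with 1038 to 1081 CPM in sensitive and 961 to 1059 CPM in resistant libraries (-0.06 ± 0.05, edgeR adjusted p = 0.349). Eno2, the neuronal enolase, and Pklr, the liver and red cell pyruvate kinase, had 14 and 3 counts over the 6 libraries and were not tested.

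In lactate formation and transport 3 of 4 genes rose, and the fourth did not pass. Ldha, the muscle-type lactate dehydrogenase subunit that predominates in proliferating cells, stood at 817, 819 and 820.0 CPM in sensitive libraries. In resistant libraries it stood at 1184, 1216 and 1212 CPM. The coefficient of variation was 0.186% in sensitive and 1.44% in resistant libraries, and the gene rose 1.47-fold (log2 fold change 0.56 ± 0.04, edgeR adjusted p = 5.89e-06). Ldhb, the heart-type subunit, was nearly silent in sensitive libraries, at 0.791, 0.628 and 0.738 CPM. It reached 4.48, 4.14 and 6.83 CPM in resistant ones, a rise of 7.16-fold (2.83 ± 0.25, edgeR adjusted p = 1.63e-05) that left the groups far apart. Per kilobase of transcript Ldhb remained minor, with 0.113% of the summed lactate dehydrogenase level in sensitive and 0.546% in resistant blasts.

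Of the lactate carriers, Slc16a1 (MCT1) was at 53.1, 50.04 and 49.7 CPM in sensitive and at 56.8, 64.9 and 60.7 CPM in resistant libraries. It rose 1.19-fold without overlap (log2 fold change 0.25 ± 0.07, edgeR adjusted p = 0.0144). The call was lost without sensitive replicate 2 (0.24, adjusted p = 0.0693) or sensitive replicate 3 (0.23, adjusted p = 0.0633). Slc16a3 (MCT4), the carrier of strongly glycolytic cells, overlapped between the groups, with 107 to 121 CPM in sensitive and 106 to 143 CPM in resistant libraries (0.09 ± 0.10, edgeR adjusted p = 0.504). The highest of its 6 values was that of resistant replicate 2.

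**Figure D3:**
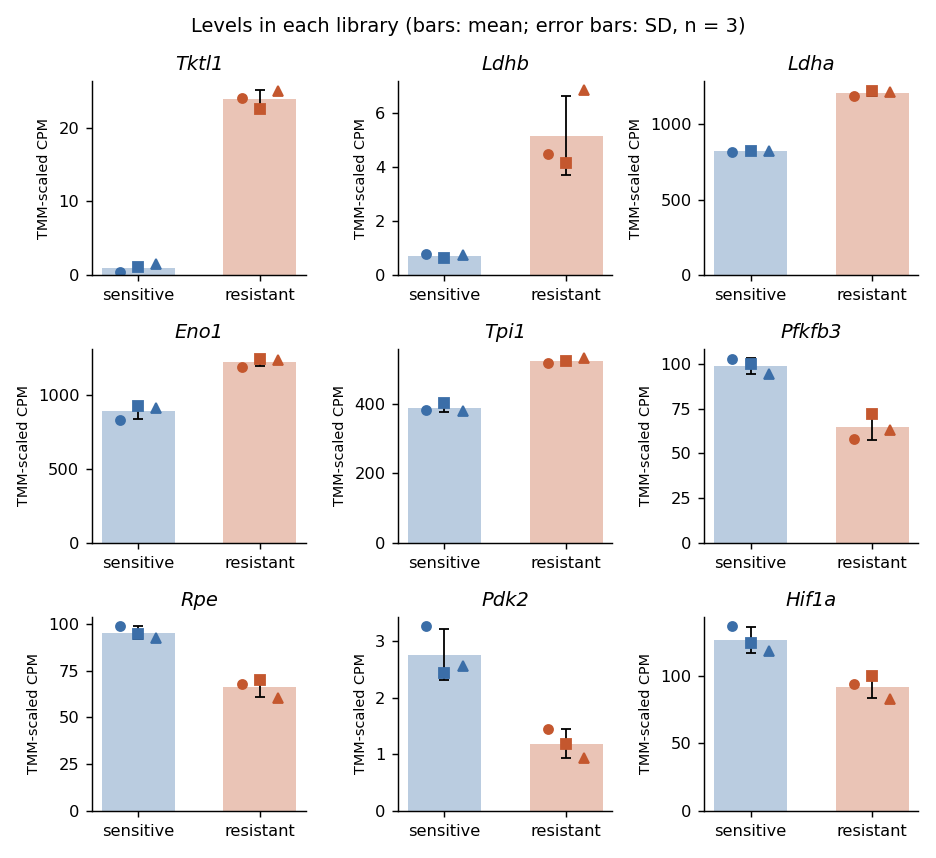
CPM of 9 members in each library (points, with symbols for replicates 1 to 3 as circle, square and triangle), with the group mean as a bar from 0 and the SD over 3 libraries as the error bar. In all 9 panels the 3 resistant points lie on one side of the 3 sensitive ones; Tktl1, Ldhb, Ldha, Eno1 and Tpi1 are higher and Pfkfb3, Rpe, Pdk2 and Hif1a lower.

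Pyruvate dehydrogenase kinases phosphorylate and switch off the complex that carries pyruvate into the citric acid cycle. Pdk1, a target of HIF1, was at 59.9, 53.1 and 59.7 CPM in sensitive and at 76.6, 70.8 and 62.6 CPM in resistant libraries. It rose 1.22-fold (log2 fold change 0.28 ± 0.08, edgeR adjusted p = 0.0206), with resistant replicate 3 only just above the sensitive range. The call was lost without sensitive replicate 2 (0.23, adjusted p = 0.102) or resistant replicate 1 (0.21, adjusted p = 0.0734). Pdk2 was low throughout, at 3.27, 2.43 and 2.57 CPM in sensitive and 1.45, 1.18 and 0.936 CPM in resistant libraries. It fell 2.32-fold without overlap (-1.20 ± 0.24, edgeR adjusted p = 0.00288). Pdk3 ranged over 46.2 to 48.8 against 45.6 to 48.5 CPM and did not pass (adjusted p = 0.968, edgeR).

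In the oxidative pentose phosphate branch, 2 of 3 genes fell by a small amount. G6pdx, glucose 6-phosphate dehydrogenase, the entry enzyme and a source of NADPH, was at 143, 152 and 154 CPM in sensitive and at 122, 136 and 131 CPM in resistant libraries. It fell 1.15-fold (log2 fold change -0.21 ± 0.06, edgeR adjusted p = 0.017), with the groups apart. The call was lost without sensitive replicate 2 (-0.20, adjusted p = 0.0775) or sensitive replicate 3 (-0.19, adjusted p = 0.0715). Pgd, the 6-phosphogluconate dehydrogenase that makes the second NADPH, stood at 724, 759 and 727 CPM and then at 551, 695 and 657 CPM. Its fall of 1.16-fold passed narrowly (-0.22 ± 0.08, edgeR adjusted p = 0.0443), resistant replicate 1 being the lowest. Leaving out any library other than resistant replicate 2 ended the call, with adjusted p between 0.0682 and 0.139. Without resistant replicate 1 the change was -0.12. Pgls, the lactonase between them, ranged over 148 to 183 CPM in sensitive and 154 to 177 CPM in resistant libraries (adjusted p = 0.98, edgeR).

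The non-oxidative branch held the largest change of all members. Tktl1, a transketolase-like gene whose catalytic role is debated, was at 0.482, 1.10 and 1.48 CPM in sensitive libraries, which corresponds to 14, 28 and 46 counts. It stood at 24.1, 22.6 and 24.9 CPM in resistant libraries, or 763, 496 and 639 counts. The rise was 23.4-fold (log2 fold change 4.54 ± 0.23, edgeR adjusted p = 3.26e-07), and the groups lay far apart. The coefficient of variation was 49.3% among the sensitive libraries, on few counts, and 4.99% among the resistant ones. Its paralog Tkt, the transketolase of all cells, was at 1136, 1151 and 1199 CPM and then at 1102, 1221 and 1228 CPM. The resistant values enclosed the sensitive ones, and the gene did not pass (0.03 ± 0.05, edgeR adjusted p = 0.724). Per kilobase, Tktl1 took 0.113% ± 0.0533 of the sum of both genes in sensitive and 2.57% ± 0.207 in resistant blasts (SD, n = 3).

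The genes named here next to Tktl1 and Ldhb changed less, did not pass or were hardly expressed. Near Tktl1 on the X chromosome, Flna rose slightly (log2 fold change 0.18, edgeR adjusted p = 0.0231), Emd and Rpl10 did not pass, and Tex28 was at 0. Around Ldhb on chromosome 6, Golt1b rose (0.35, edgeR adjusted p = 0.0027), Cmas did not pass, and Spx, Gys2, Kcnj8 and Abcc9 had too few counts to be tested.

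Rpe and Taldo1 fell. Rpe, the epimerase of ribulose 5-phosphate, stood at 99.0, 94.5 and 92.3 CPM in sensitive and at 68.0, 69.8 and 60.5 CPM in resistant libraries. The fall was 1.44-fold (log2 fold change -0.53 ± 0.07, edgeR adjusted p = 0.000173), with a clear gap between the groups. Its transcript shares 558 bases with that of Kansl1l on the other strand, and Kansl1l fell too (-0.90 ± 0.08, edgeR adjusted p = 1.84e-05). With the strand setting not given, reads from the overlap cannot be told apart. Taldo1, transaldolase, was at 754.5, 770.0 and 786 CPM and then at 602, 675 and 697 CPM, a fall of 1.17-fold without overlap (-0.23 ± 0.06, edgeR adjusted p = 0.0117). Rpia, the ribose 5-phosphate isomerase, ranged over 97.3 to 103 CPM in sensitive and 99.2 to 109.6 CPM in resistant libraries and did not pass (0.06 ± 0.06, edgeR adjusted p = 0.473).

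Ribose phosphate is activated for nucleotide synthesis by phosphoribosyl pyrophosphate synthetases. Prps1 was at 73.7, 63.8 and 58.3 CPM in sensitive and at 84.5, 79.6 and 82.1 CPM in resistant libraries. It rose 1.26-fold without overlap (log2 fold change 0.33 ± 0.08, edgeR adjusted p = 0.00897). Prps2 was at 92.4, 87.9 and 86.3 CPM and then at 88.9, 90.9 and 88.0 CPM, with the resistant values inside the sensitive range, and did not pass (0.01 ± 0.05, adjusted p = 0.937, edgeR).

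Hif1a, the oxygen-regulated subunit of HIF1, fell. It stood at 137, 124 and 118 CPM in sensitive and at 93.4, 99.5 and 82.6 CPM in resistant libraries. The fall was 1.37-fold without overlap (log2 fold change -0.46 ± 0.08, edgeR adjusted p = 0.00122). HIF1A is controlled chiefly through the stability of its protein, which these counts do not measure.

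Levels of different genes can be compared per kilobase of transcript. On that scale, and from each gene's own row alone, the members spanned a wide range. Tktl1 (0.412 CPM per kb), Ldhb (0.551) and Pdk2 (1.23) were the lowest tested members in sensitive blasts. Pkm (692 CPM per kb), Taldo1 (627), Aldoa (605) and Pgam1 (598) were the highest. In resistant blasts Pkm (785 CPM per kb), Aldoa (739) and Ldha (718) were the highest, and Tktl1 reached 9.64 CPM per kb, beside 9.78 for Slc2a1. With its near-copies added, Gapdh stood above all of these own-row levels, at 990.1 CPM per kb in sensitive and 1137 in resistant blasts.

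**Figure D4:**
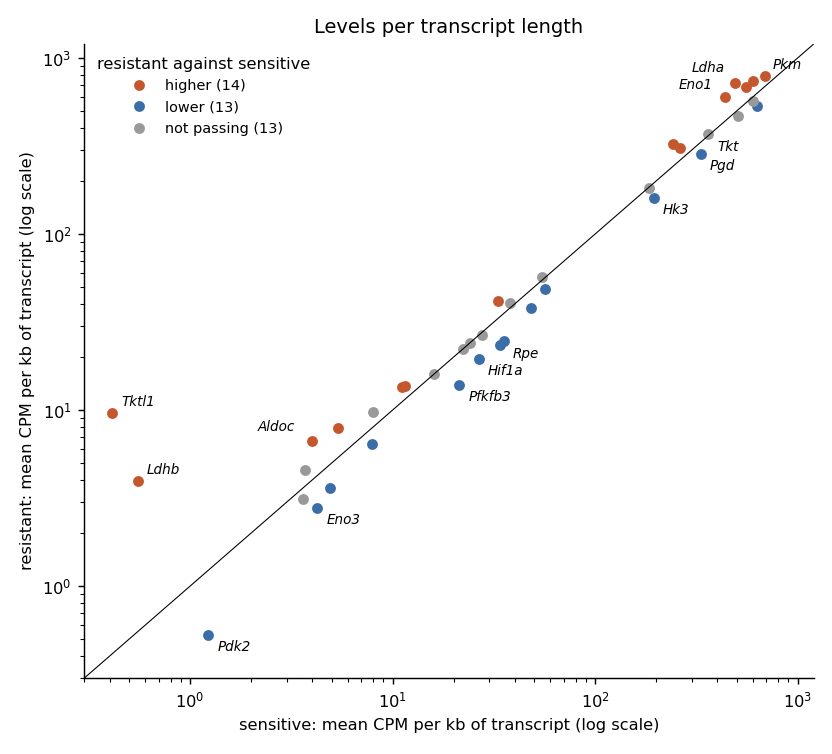
Mean CPM per kilobase of transcript in the 3 resistant libraries against the 3 sensitive ones for the 40 tested members, both axes on a log scale, with the line of equal levels; colours give the test's call. Tktl1 and Ldhb lie far above the line at low levels, and the abundant genes lie close to it.

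Within families of enzymes for the same step, the mix of genes was compared as each gene's share of the family's summed level per kilobase. This does not depend on library scaling. Over 19 shares in 11 families, the groups lay apart for 10, with 5 higher and 5 lower in resistant blasts. Levels of single genes lay apart for 52.4% of all tested genes. Shares within a family depend on each other, because a rise of any gene's share lowers that of the rest. With 3 libraries against 3, the two-sided exact permutation test cannot go below p = 0.1, so none could pass, and the smallest adjusted p was 0.19. The largest shift was in the Pfkfb family, where Pfkfb3 made up 62.1%, 60.2% and 58.9% in sensitive and 43.2%, 48.6% and 47.4% in resistant libraries. Pfkfb2 made up 15.4%, 15.8% and 14.6% and then 28.2%, 24.0% and 26.7%.

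Among phosphofructokinase genes, Pfkl made up 48.8% ± 0.0782 in sensitive and 41.1% ± 3.41 in resistant blasts (SD, n = 3), and Pfkp 39.7% ± 0.697 and 47.3% ± 1.66. Pdk1 went from 32.0% ± 1.43 to 37.1% ± 1.57 of the kinase genes, and Pdk2 from 3.53% ± 0.444 to 1.45% ± 0.230. Prps1 went from 57.9% ± 2.02 to 63.4% ± 1.01 of its pair with Prps2. Families here were made of members alone. Prps1l3, outside that pair, stood at 27.8 CPM per kb in sensitive and 26.1 in resistant blasts. Prps2 stood at 24.0 and 24.1. The shares of Aldoa and Ldha (lower) and Eno1 (higher) also lay apart, with means between 99.0% and 99.9% of their families. The hexokinase mix overlapped, with Hk3 at 75.3% ± 0.823 in sensitive and 74.8% ± 2.19 in resistant blasts.

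**Figure D5:**
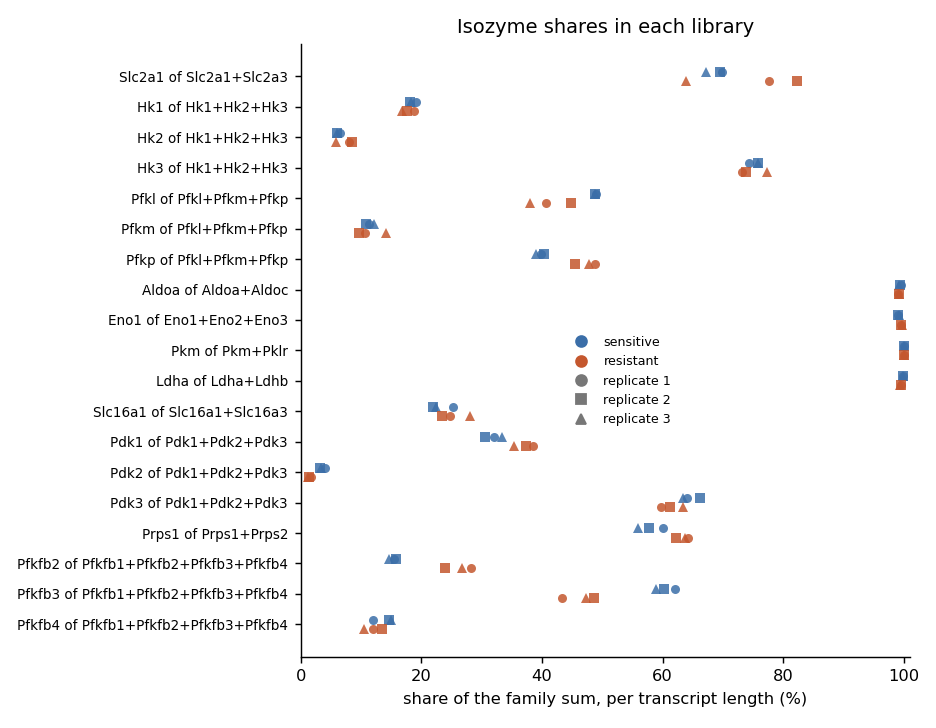
Share of each gene in its family's summed CPM per kilobase of transcript, in percent, for each of the 6 libraries; colours give the group and symbols the replicate number. The Pfkfb2 and Pfkfb3 points show the widest separation of the groups, while the hexokinase shares overlap.

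The resistant libraries also differed among themselves. For 11 of the 40 tested members (27.5%) replicate 2 was the highest and replicate 3 the lowest of the 3, a pattern seen in 17.0% of all tested genes. Of the 28 members at 50 CPM or more, 3 (Hk2, Pfkl and Slc16a3) had a coefficient of variation over 15% in resistant blasts. Of all tested genes at that level, 3.16% did.

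Genes of neighbouring pathways, from lists that hold no member, moved in both directions. Of 84 tested, 17 rose and 22 fell, and 18.5% and 20.8% of all tested genes did so. The lists had median log2 fold changes between -0.11 and 0.14, beside -0.01 for all tested genes. Of 14 other genes of glycolysis and gluconeogenesis, 2 rose and 5 fell by edgeR. The rises were lost without any 1 of the 3 sensitive libraries, 1 was left without resistant replicate 3, and 2 falls were left without sensitive replicate 3. Fbp1, the gluconeogenic fructose bisphosphatase, fell from 6.38 to 2.42 CPM (log2 fold change -1.39 ± 0.17, edgeR adjusted p = 0.000122), and Pck2 (-0.49) and Pgm2 (-0.26) fell too. Of 11 other genes of carriers and carrier-associated proteins, 5 fell and 6 did not pass. Those that fell included Mpc1, a subunit of the mitochondrial pyruvate carrier (-0.37 ± 0.07, edgeR adjusted p = 0.00144), Emb (-0.40) and Slc37a4 (-0.30). Of 8 genes of the pyruvate dehydrogenase complex and its regulators, 3 rose and 5 did not pass. The 3 encode subunits of the complex: Dld (0.36 ± 0.06, edgeR adjusted p = 0.00103), Pdhb (0.24) and Pdha1 (0.24).

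Of 7 other pentose phosphate and ribose genes, H6pd alone passed and fell (log2 fold change -0.34 ± 0.06, edgeR adjusted p = 0.00176); it encodes the glucose 6-phosphate dehydrogenase of the endoplasmic reticulum. Of 12 genes of the hexosamine, glycogen and polyol branches, 5 rose and 4 fell, and only 2 falls passed when any library other than resistant replicate 2 was left out. The glycogen branching enzyme Gbe1 fell (-0.53), and Ugp2, which makes UDP-glucose (0.39), and the aldose reductase Akr1b3 (0.26) rose. Of 8 oxygen-sensing genes, 2 fell and 6 did not pass. The 2 were Epas1, which encodes HIF2A, from 3.40 to 0.683 CPM (-2.31 ± 0.24, edgeR adjusted p = 3.94e-05), and the prolyl hydroxylase gene Egln3 from 58.6 to 31.9 CPM (-0.88 ± 0.13, edgeR adjusted p = 0.000478). Of 14 HIF targets outside glycolysis, 5 rose and 2 fell (1 without sensitive replicate 1), among them the histone demethylase gene Kdm3a (0.51 ± 0.06, edgeR adjusted p = 0.000118), Ak4 (2.95) and Ndrg1 (-0.72). Of 10 other regulators, Txnip (0.38) and Arrdc4 (0.57), which restrain glucose uptake, rose, and 3 fell, among them Mlxip (-0.24). Myc did not pass (-0.10 ± 0.11, edgeR adjusted p = 0.469).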

How the data were processed

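The authors deposited a table of counts per Ensembl gene for 6 RNA-seq libraries, made from total RNA with a column kit and a TruSeq kit, per the labels' protocols. Per the submitters' processing notes, TopHat2, RSEM and mm9 were used, with no versions or roles. Not given in the sources used here are the strand setting, the annotation release, the treatment of shared reads and whether the counts are rounded RSEM estimates. All columns matched 1 sample each by title, and 0 were left unused.

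Identifiers were matched to symbols, chromosomes and transcripts with GENCODE M21 (31655 of 35932 matched). Low counts were removed with filterByExpr, and the rest were TMM-scaled and tested with edgeR 4.0.16 (quasi-likelihood F test, group alone, R 4.3.3), with Benjamini-Hochberg adjustment over 13414 genes at 0.05. CPM values are TMM-scaled, means are ± SD over 3 libraries, and log2 fold changes, resistant over sensitive, are ± SE. Levels per kilobase use the principal transcript. Near-copies were found with BLAST 2.17.0. Replicates differed beyond counting noise (chi-square over its degrees of freedom at least 3.92), so none matched another to within that noise. This cannot tell whether libraries came from the same RNA or animal. Alternatives were other scalings, DESeq2 1.42.0, limma-voom 3.58.1, other low-count filters, a replicate block, each library left out, near-copies added and other transcript lengths.

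The members and lists were chosen with earlier results of these data known. Every member is accounted for, with values per library for those past the test and for the gene with most counts of each role. Of each neighbouring list, at most the 3 genes with the smallest adjusted p are named, apart from Myc. Myc was named after its values were seen, as were Prps1l3, the near-copies, overlapping genes and chromosomal neighbours. Some genes near the members or in the marker lists are not reported here.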

Additional observations from a re-analysis of the deposited data

How the results depend on the processing

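Each tested member was fitted under 15 alternatives. Of the 27 members past the test, 21 kept the call under all 15 and 6 lost it under some, named with their values in the text, and 0 changed direction. The counts of members higher and lower were 14 and 13 with library totals, DESeq2 1.42.0, limma-voom, either other filter and near-copies added, and 14 and 12 with RLE or upper quartile factors. Leaving out 1 library gave 12 to 15 members higher and 9 to 12 lower. Over all tested genes it gave 1641 to 2521 higher and 2015 to 2711 lower, the lowest without sensitive replicate 2; the cause was not tested. Library totals alone gave 2087 higher and 3136 lower.

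Nothing in the labels says that replicate numbers pair the libraries, and deviations of same-numbered libraries correlated over all tested genes at 0.037, -0.006 and -0.086, so no pairing was assumed. Single rows can still follow the number, as Gm12033 and Gm13394 did in replicate 1. With the replicate block, 14 members were higher and 13 lower, and 2497 and 2824 of all tested genes.

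Only members that did not pass changed sign. Hk2 was at -0.02 with library totals, limma-voom and the replicate block, and between -0.18 and 0.17 when 1 library was left out. Pdk3 and Pgls were at 0.00 with RLE, upper quartile, DESeq2 and the CPM filter, and leaving out 1 library gave -0.02 to 0.03 and -0.07 to 0.08. Library totals gave -0.01 for Tkt and -0.03 for Prps2, which lay between -0.02 and 0.04 with 1 library left out. Pfkp was at 0.02 without resistant replicate 3 (range -0.12 to 0.02) and Slc16a3 at -0.03 without resistant replicate 2 (range -0.03 to 0.19). Of the isozyme shares, 11 lay apart without division by length and 10 with the longest transcript. With 1 library left out, 10 to 15 did. A share is a ratio within 1 library, so leaving another out could not lower that count.

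Depth limits Tktl1, Ldhb and Pdk2, which rest on few counts in 1 group, and leaves Eno2 and Pklr untested.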
